A study of Homo sapiens with 14 samples.

Results

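Retinoic acid (RA) treatment for 10 days was compared with bone morphogenetic protein 2 (BMP2) treatment for 10 days in NT2 cells, and every gene was set against each of the 2 BMP2 libraries in turn. The comparison uses 4 of the 14 RNA sequencing libraries of the series, taken by treatment and day: 2 of RA day 10 and 2 of BMP2 day 10. NT2 is a human embryonal carcinoma line, a single clonal tumour line whose stem cells can be driven toward several fates. The study concerned nucleotide excision repair, the pathway that removes bulky DNA lesions, while these cells were induced toward neurons with RA and toward muscle cells with BMP2. Per the labels, all-trans RA in DMSO was used at a final 10 µM. BMP2 was first tried at 30 ng/ml and later used at 40 ng/ml, and the dose of each library is not given. The cells were kept in the same medium with serum, and a DMSO culture of day 10 was not analysed here. RA day 10 and BMP2 day 10 cells share the labelled day, and effects of the factor, of its solvent and of an unequal BMP2 dose cannot be told apart. The other 10 libraries, from RA and BMP2 at days 5 and 21 and from untreated cells at day 0, entered the fits to estimate the spread. No label tells if replicate libraries were grown as independent cultures, and every p-value here rests on the spread between libraries, which may be technical.

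RA enters the nucleus and binds receptors that sit on DNA as partners of the retinoid X receptors, where it switches on target genes directly. Among the targets are its own degrading enzymes and the HOX genes at the front end of the HOX clusters, and in embryonal carcinoma cells this starts a neural programme. BMP2 is a secreted ligand that binds receptor kinases at the cell surface. These phosphorylate SMAD proteins, which turn on genes of mesoderm, of surface epithelium and of the pathway's own feedback.

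At day 10, RA-treated cells carried high levels of HOX genes of groups 1 to 5, of RA-degrading enzymes, of the neurofilament gene NEFM and of some neural progenitor factors such as PAX6, which BMP2-treated cells held at low levels or lacked. BMP2-treated cells carried the heart mesoderm factors TBX20 and HAND1, the muscle coactivator MYOCD, the epithelial keratin KRT19 and matrix genes such as COL6A3 and LUM, which were low with RA. These genes differed from both BMP2 libraries. A call against 1 library alone, as in the lists that follow, does not show that the BMP2 libraries differ. In contrast, 24 of 28 cell cycle genes and 12 of 24 pluripotency genes were higher with RA than BMP2 replicate 2 alone (all genes: 8.29%), and 8 of 20 collagen genes were lower than it alone (all genes: 9.64%).

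The 4 libraries held 45773278 and 60913075 counts for RA day 10 replicates 1 and 2, and 56805074 and 48707236 for BMP2 day 10 replicates 1 and 2. Values below are CPM, read counts scaled to the library size and its TMM factor (an estimate of composition), and a pair of values gives replicate 1 and then replicate 2. CPM of different genes are not compared, since they are not per length. The BMP2 day 10 libraries stood apart from each other. Day labels were used as given, and whether a day or dose label of one of these libraries is wrong was not tested. Over the log2 CPM of the tested genes they correlated with r = 0.9184, against r = 0.9643 between the RA day 10 libraries. Among the other libraries, the best match of BMP2 day 10 replicate 1 was at BMP2 day 5 (r = 0.9814 with its replicate 2), that of BMP2 day 10 replicate 2 at BMP2 day 21 (r = 0.9657 with its replicate 2), and that of RA day 10 replicate 2 at RA day 5 (r = 0.9676 with its replicate 1). These correlations run across genes, which are not independent replicates. In bulk RNA, fewer cells of a type and less RNA per cell cannot be told apart.

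Of 19142 genes tested with edgeR's quasi-likelihood F test, 2075 (10.8%) passed a Benjamini-Hochberg adjusted p of 0.05 between RA and both BMP2 libraries taken as 1 group, 979 (5.11%) higher and 1096 (5.73%) lower with RA. With each BMP2 library fitted on its own, 479 genes (2.5%) were higher with RA than both libraries and 526 (2.75%) were lower than both. Their median log2 fold changes were 2.19 against replicate 1 and 2.31 against replicate 2 for the higher genes, and -1.88 and -2.01 for the lower ones. Against replicate 1, 899 genes (4.7%) were higher and 969 (5.06%) lower with RA, and against replicate 2, 2093 (10.9%) were higher and 2410 (12.6%) lower. The call of 796 genes (4.16%) was made against replicate 1 alone, 381 higher (1.99%) and 415 lower (2.17%). That of 3431 genes (17.9%) was made against replicate 2 alone, 1586 higher (8.29%) and 1845 lower (9.64%). The other 13843 genes (72.3%) were called against neither library. Passing against one library and not the other does not show that the libraries differ, so they were also tested against each other. Of all genes, 947 (4.95%) were higher and 1106 (5.78%) lower in BMP2 replicate 1 than in replicate 2. Of the genes called against 1 library alone, 1582 passed that test as well. A further 67 genes (0.35%) were called in opposite directions, 39 of them higher than replicate 1 and lower than replicate 2. A lone library has no replicate of its own, and these tests assume that it varied like the other groups. Below, a single gene that keeps or loses its call with a library left out does so for both BMP2 libraries as 1 group. Calls against each library were followed in that way only as counts of genes. An exact permutation test of 2 against 2 libraries cannot go below p = 0.333, so none is given per gene. Both RA libraries lay above both BMP2 libraries in 25.9% of all genes and below them in 21.5%, and counts of genes without overlap are read against these shares.

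**Figure D1:**
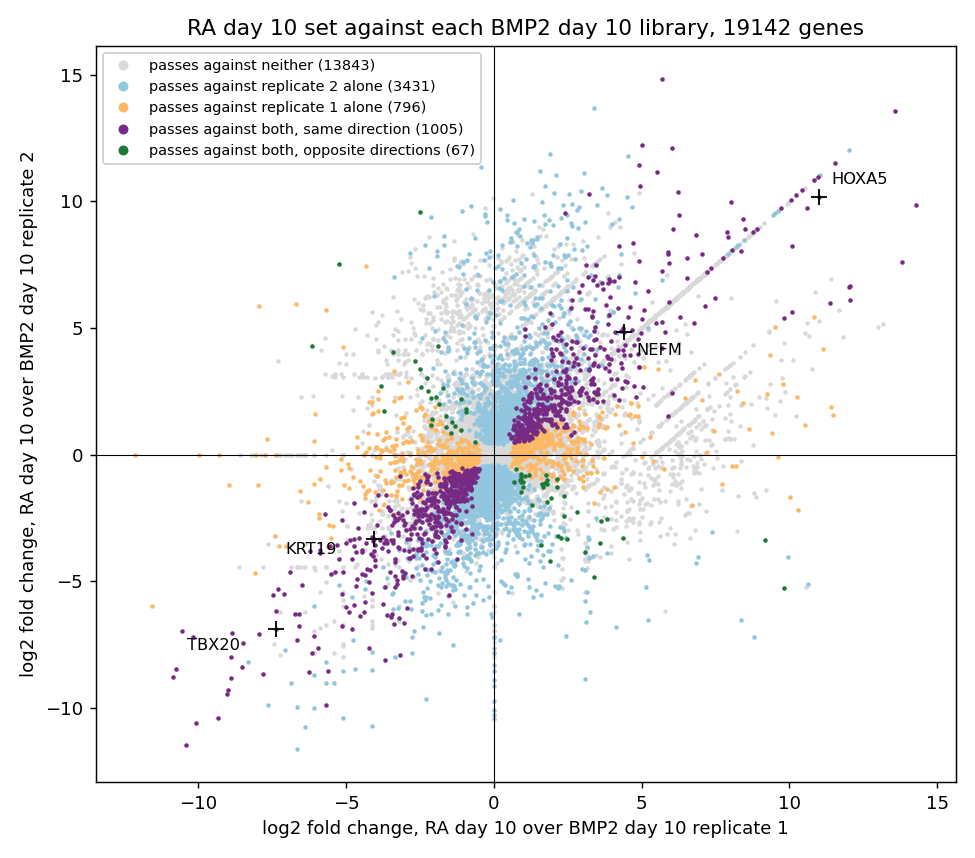
Each point is 1 of 19142 tested genes, with the log2 fold change of RA day 10 over BMP2 day 10 replicate 1 on the horizontal axis and over replicate 2 on the vertical axis, coloured by whether the gene was called against both, one or neither library. NEFM and HOXA5 lie far up and right, TBX20 and KRT19 down and left, while the 67 genes with opposite calls lie off the diagonal.

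The scatter of the fold changes against each library places the 3 marker genes on its diagonal. NEFM encodes the medium neurofilament protein, a structural filament of nerve fibres. It had 718 and 369 CPM in RA day 10 cells, against 25.6 and 18.8 CPM in BMP2 day 10 cells (means 544 ± 247 and 22.2 ± 4.81, SD, n = 2 each), a log2 fold change of 4.61 ± 0.36 (SE; edgeR adjusted p = 0.000313). The lowest RA value lay far above the highest BMP2 value, and against the single libraries the log2 fold change was 4.41 for replicate 1 and 4.85 for replicate 2. TBX20, a T-box factor of the developing heart, had 0.0761 and 0.0596 CPM with RA, against 11.5 and 8.25 CPM with BMP2. Its log2 fold change was -7.15 ± 0.86 (edgeR adjusted p = 0.00292). KRT19, a keratin of simple epithelia, had 31.5 and 53.8 CPM with RA, against 705 and 424 CPM with BMP2, and fell by 3.73 ± 0.41 on the log2 scale (edgeR adjusted p = 0.00152). All 3 kept their calls when any one of the 14 libraries was left out.

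The marker genes do not speak for whole cell types. Of the neuron markers, DCX, a microtubule protein of young neurons, had 135 and 88.9 CPM in RA cells and 23 and 11.9 CPM in BMP2 cells. ELAVL3, ELAVL4 and STMN2 differed between the RA libraries themselves, ELAVL3 with 0.914 and 10.3 CPM, ELAVL4 with 2.11 and 20.4 CPM and STMN2 with 2.13 and 17.6 CPM. INA, another neuronal filament gene, was not higher with RA, at 73.8 and 99.6 CPM against 129 and 166 CPM with BMP2 (log2 fold change -0.77 ± 0.29, edgeR adjusted p = 0.121). Of the heart markers, NKX2-5 had 14.5 and 13.5 CPM with RA and 13.4 and 23.6 CPM with BMP2. The smooth muscle marker MYH11 had 2.19 and 2.22 CPM with RA and 6.42 and 1.52 CPM with BMP2. Neither of these passed the test.

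HOX genes encode the homeodomain factors that give cells their place along the body axis, and they are arranged in clusters whose front members act toward the head. All 15 tested genes of groups 1 to 5 were higher with RA than both BMP2 libraries, beside 2.5% of all genes, with a median log2 fold change of 7.07 (all tested genes: 0.00). Their summed level was 1123 and 1163 CPM in RA libraries, against 13.2 and 7.91 CPM in BMP2 libraries. Under every alternative in which both libraries could be tested, 14 or 15 of them stayed higher than both, the 14 without RA day 10 replicate 2. HOXA5 had 258 and 263 CPM with RA, against 0.124 and 0.224 CPM with BMP2 (log2 fold change 10.56 ± 0.69, edgeR adjusted p = 0.000161). HOXA2 had 54.5 and 63.3 CPM with RA, against 0.0355 and 0.0671 CPM with BMP2 (10.15 ± 0.91). HOXB1, the hindbrain gene at the front of its cluster, had 25.7 and 67.8 CPM with RA, against 0.177 and 0.0447 CPM with BMP2 (8.63 ± 0.94). In each of these the RA and BMP2 libraries were far apart, and the libraries of one treatment lay close together except for HOXB1. HOXA3 and HOXB5, with log2 fold changes of 8.79 ± 0.83 and 8.24 ± 1.10, followed the same pattern. The long noncoding genes HOXA-AS3 and HOXA-AS2 of the HOXA cluster were also among the 12 largest: HOXA-AS3 had 45.1 and 21.3 CPM with RA, against 0.0887 and 0.0671 CPM with BMP2. Most of the span of HOXA3, HOXA5, HOXB5, HOXA-AS2 and HOXA-AS3 lies inside other annotated genes, so reads of a neighbour could be counted with them, and strand use in counting is not given. HOXA2 and HOXB1 have no such overlap.

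Along the clusters the direction turned. Of the 12 tested genes of groups 6 to 9, 5 were higher than both BMP2 libraries (HOXA7, HOXB6, HOXB7, HOXB8 and HOXD8). HOXB8 had 59 and 50.3 CPM with RA, against 1.06 and 0.358 CPM with BMP2 (log2 fold change 6.24 ± 0.75). Of the 12 tested genes of groups 10 to 13, which pattern the hind end, 4 were lower than both (HOXA11, HOXA13, HOXC11 and HOXC13; all genes: 2.75%), and none was higher than either library. HOXA13 had 0.286 and 0.0894 CPM with RA, against 17.7 and 20.1 CPM with BMP2, and fell by 6.67 ± 0.95 on the log2 scale (edgeR adjusted p = 0.00412). HOXC11 had no count in either RA library and 1.38 and 2.88 CPM with BMP2. The losses that follow concern the call against both BMP2 libraries as 1 group. The calls of HOXA7 and HOXB6 ended without RA day 10 replicate 1 (adjusted p = 0.0775 and 0.0535) and without replicate 2 (0.0605 and 0.0581), and so did that of HOXC13 (0.106 and 0.0976). HOXA11 lost its call without RA day 10 replicate 1 (0.119) or replicate 2 (0.203), and also without either library of BMP2 day 5 (0.057 and 0.0575), untreated day 0 (0.0507 for each) or RA day 21 (0.07 and 0.0699).

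**Figure D2:**
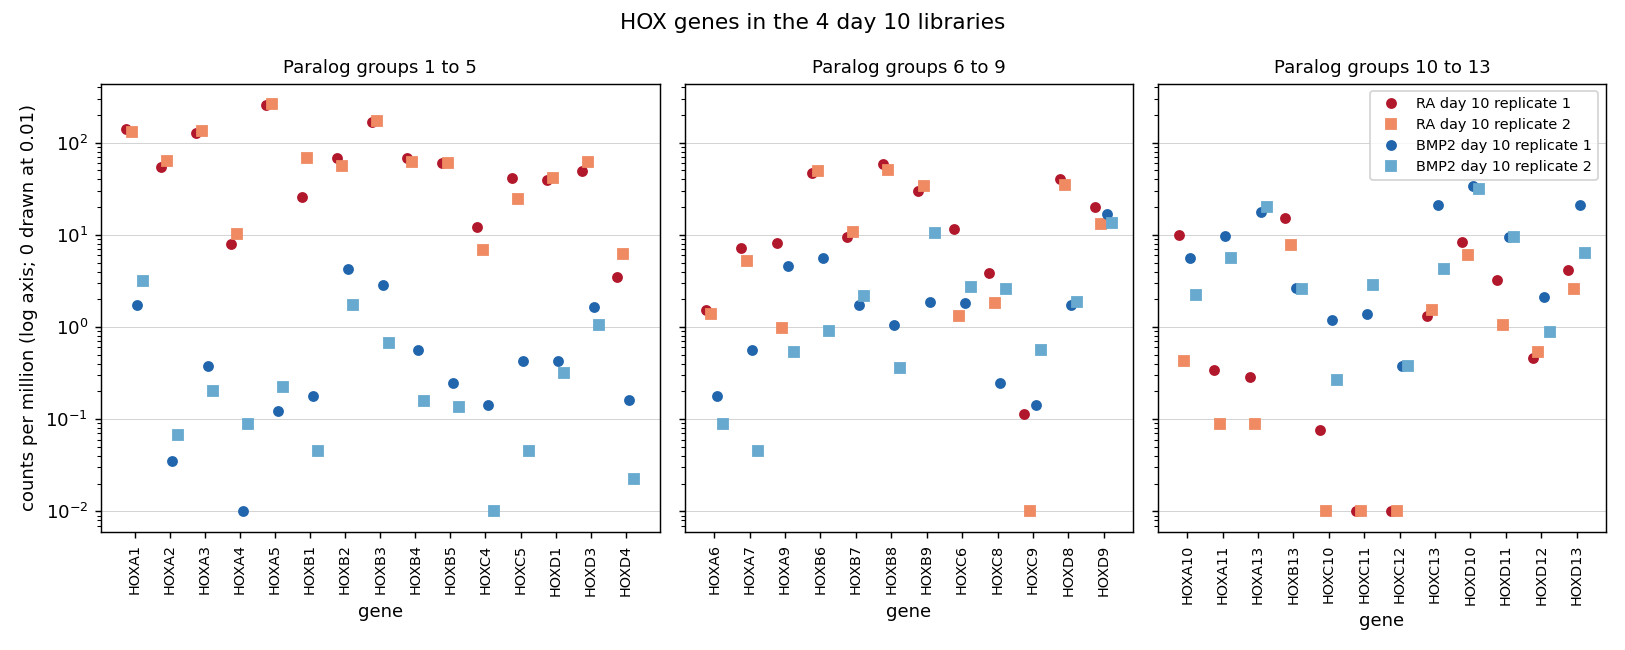
Levels of the tested HOX genes in CPM on a log axis, by gene group along the cluster, with RA day 10 libraries and BMP2 day 10 libraries as separate points. RA libraries lie above BMP2 libraries in all 15 genes of groups 1 to 5, and below them for HOXA13, which had 0.286 and 0.0894 CPM with RA against 17.7 and 20.1 CPM with BMP2.

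Among the 23 tested genes of retinoid handling and RA response, 9 were higher with RA than both BMP2 libraries (all genes: 2.5%) and 1 was lower. CYP26A1 and CYP26B1 encode the enzymes that break down RA. CYP26B1 had 247 and 186 CPM with RA, against 3.19 and 0.447 CPM with BMP2 (log2 fold change 6.87 ± 0.95, edgeR adjusted p = 0.00374). CYP26A1 had 255 and 259 CPM with RA, against 4.97 and 13.9 CPM with BMP2 (4.77 ± 0.82, adjusted p = 0.00793). No value of one treatment reached those of the other in either gene. Among the higher genes were also RARA, CRABP2, DHRS3, MEIS2, NRIP1 and ALDH1A1. ALDH1A1, which makes RA from retinal, lost its call without RA day 10 replicate 2 (log2 fold change 3.0, adjusted p = 0.0975). RBP4, the plasma retinol carrier, was the 1 lower gene, at 0.267 and 0.566 CPM with RA against 4.84 and 1.92 CPM with BMP2. Its whole span lies inside other genes, and its call ended without RA day 10 replicate 1 (-2.59, adjusted p = 0.139) or replicate 2 (-3.68, adjusted p = 0.0714).

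RARB, a receptor gene switched on by RA, did not pass the test. It had 33.3 and 30.8 CPM with RA, against 43.1 and 13 CPM with BMP2 (log2 fold change 0.19 ± 0.48, edgeR adjusted p = 0.837), so RA values lay between the BMP2 libraries. It is shown because its promoter holds the known RA response element, a direct repeat of the receptors' binding letters called DR5. The 250 bases before the RefSeq start (GRCh38.p14, chr3:25428013-25428262, plus strand) read as follows, with the DR5 match in capitals, 53 bases before the start.
RARB: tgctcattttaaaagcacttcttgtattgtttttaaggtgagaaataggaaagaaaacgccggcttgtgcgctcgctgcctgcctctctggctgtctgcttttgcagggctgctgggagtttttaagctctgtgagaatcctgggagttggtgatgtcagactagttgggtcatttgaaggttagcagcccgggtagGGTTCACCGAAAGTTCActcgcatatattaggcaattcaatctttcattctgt
The search covered these 250 bases and a shorter stretch after the start, on both strands. Of 27305 RefSeq promoters, 22 (0.0806%) held the DR5 element. It was found in 1 of 21 promoters of the retinoid list, that of RARB, and in 0 of 9 of HOX groups 1 to 5. A match is a description of letters, and no match says only that they are not in this window.

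Neural genes were higher with RA in part. Of 31 neural progenitor and proneural factors tested, 8 were higher than both BMP2 libraries (among them SOX2, SOX3, PAX6, ZIC1, POU3F1 and POU3F2), beside 2.5% of all genes, and a further 5 were higher than replicate 2 alone (all genes: 8.29%). Of the rest, 1 was higher and 1 lower than replicate 1 alone, and 16 were called against neither. The summed level of the list was 991 and 1590 CPM with RA, against 1125 and 231 CPM with BMP2, so the treatments overlapped in the sum. PAX6, a factor of the neural tube and eye, had 36.2 and 50.2 CPM with RA, against 0.781 and 1.52 CPM with BMP2 (log2 fold change 5.24 ± 0.70), and the treatments did not overlap. SOX2, shared by neural progenitors and pluripotent cells, had 85.9 and 129 CPM with RA, against 24.9 and 4.69 CPM with BMP2 (2.86 ± 0.65, adjusted p = 0.0235). Its span lies inside another gene, and its call ended without RA day 10 replicate 1 (3.11, adjusted p = 0.0579) or replicate 2 (2.51, adjusted p = 0.107).

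Among genes of mature neurons, some were higher with RA. Of 22 genes of the neuronal cytoskeleton and RNA-binding proteins, 3 were higher than both BMP2 libraries (NEFM, NOVA1 and NOVA2; all genes: 2.5%) and 9 than replicate 2 alone (all genes: 8.29%), while 1 was higher and 1 lower than replicate 1 alone. NOVA2, a neuronal splicing factor, had 42.8 and 36.4 CPM with RA, against 1.06 and 0.447 CPM with BMP2 (log2 fold change 5.70 ± 0.82). Of 25 synaptic and secretory granule genes, 4 were higher than both (SV2A, SV2B, CPLX1 and RAB3C; all genes: 2.5%), 4 than replicate 1 alone (1.99%) and 6 than replicate 2 alone (8.29%). In the other direction, 1 was lower than replicate 1 alone (all genes: 2.17%) and 3 than replicate 2 alone (9.64%). RAB3C, a small GTPase of synaptic vesicles, had 11.9 and 8.7 CPM with RA, against 0.319 and 0 CPM with BMP2 (5.93 ± 1.09). SV2B had 7.84 and 10.7 CPM with RA, against 0 and 0.134 CPM with BMP2, and lost its call without RA day 10 replicate 2 (6.92, adjusted p = 0.055). Of 20 voltage-gated channel genes 1, SCN3B, was higher than both, near the share of all genes (2.5%), and it lost its call without RA day 10 replicate 2 (1.70, adjusted p = 0.0703). A further 4 were higher and 2 were lower than replicate 2 alone (all genes: 8.29% and 9.64%).

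A pair of receptor genes for neurotransmitters was among the 12 largest changes over both libraries. CHRNB4, a nicotinic acetylcholine receptor subunit, had 35.4 and 17.1 CPM with RA and no count in either BMP2 library. Taking 3 counts over the group as the floor, it was 885-fold higher. That floor holds for independent counts, and counting each read of a pair would lower the fold. GRIA4, an AMPA glutamate receptor subunit, had 45.8 and 15.8 CPM with RA, against 0 and 0.156 CPM with BMP2 (log2 fold change 8.69 ± 1.36, edgeR adjusted p = 0.0055). MMRN1, a protein of platelets and vessel lining, had 39.8 and 47.2 CPM with RA, against 0 and 0.0447 CPM with BMP2 (10.93 ± 1.37). C21orf62, whose span lies inside other genes, had 15.2 and 9.36 CPM with RA, against 0.0355 and 0.0447 CPM with BMP2. All 4 were near absent in both BMP2 libraries.

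**Figure D3:**
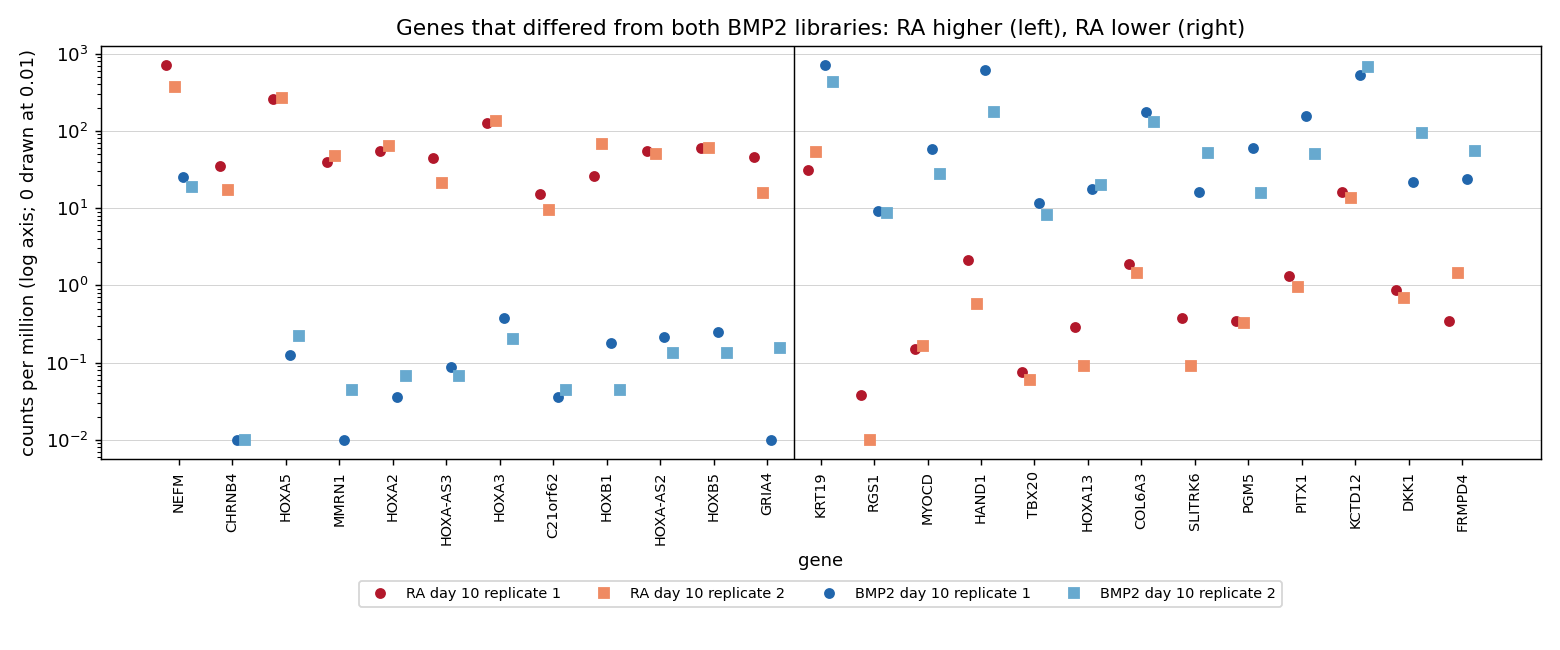
CPM on a log axis of the genes named in the text for their difference from both BMP2 libraries, with RA day 10 replicates and BMP2 day 10 replicates as separate points and libraries without a count drawn at 0.01. CHRNB4 is at 35.4 and 17.1 CPM with RA and at no count with BMP2, while TBX20 is at 0.0761 and 0.0596 CPM with RA against 11.5 and 8.25 CPM with BMP2.

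On the side of BMP2 were genes of muscle and heart. Of 20 smooth muscle and contractile genes, 4 were lower with RA than both BMP2 libraries (ACTA2, CNN1, MYOCD and TPM1; all genes: 2.75%), 4 were lower than replicate 2 alone (all genes: 9.64%), and none was higher than either. MYOCD, the coactivator of serum response factor that drives smooth muscle genes, had 0.152 and 0.164 CPM with RA, against 57.4 and 27.8 CPM with BMP2, and fell by 8.05 ± 0.89 on the log2 scale (edgeR adjusted p = 0.00152). ACTA2, smooth muscle actin, had 5.81 and 5.5 CPM with RA, against 115 and 319 CPM with BMP2 (log2 fold change -5.26 ± 0.83). TPM1, a tropomyosin, had 641 and 1041 CPM with RA, against 4110 and 4367 CPM with BMP2 (-2.33 ± 0.40). RA values lay below both BMP2 values in all 3. Of ACTA2's span 72.6% lies inside other genes, and its call ended without RA day 10 replicate 2 (-5.23, adjusted p = 0.0502). The call of TPM1 ended without RA day 10 replicate 1 (-2.03, adjusted p = 0.0579). CNN1 lost its call without RA day 10 replicate 1 (-2.0, adjusted p = 0.18) or replicate 2 (-3.15, adjusted p = 0.0737), BMP2 day 21 replicate 1 (0.0501) or either RA day 21 library (0.0574 and 0.0573).

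Of 21 heart and lateral mesoderm factors, 3 were lower than both (TBX20, GATA4 and HAND1; all genes: 2.75%). A further 2 were lower and 1 was higher than replicate 2 alone (all genes: 9.64% and 8.29%), and 15 were called against neither. HAND1, a factor of the heart and of extraembryonic mesoderm, had 2.15 and 0.566 CPM with RA, against 609 and 176 CPM with BMP2 (log2 fold change -8.19 ± 1.51, edgeR adjusted p = 0.0104). GATA4 had 2.42 and 0.358 CPM with RA, against 15.3 and 115 CPM with BMP2 (-5.57 ± 1.15). The treatments did not overlap in either gene. HAND1 missed the threshold without RA day 10 replicate 1 (-9.45, adjusted p = 0.0522) or replicate 2 (-7.53, adjusted p = 0.0802), and GATA4 without replicate 2 (-4.75, adjusted p = 0.086). Of 20 sarcomere and membrane genes of heart muscle, 1 was lower than both, ACTC1, the cardiac actin, near the share of all genes (2.75%). It had 13.9 and 13.2 CPM with RA, against 301 and 357 CPM with BMP2 (-4.60 ± 1.11, adjusted p = 0.0286), although its call ended without RA day 10 replicate 1 (-4.65, adjusted p = 0.146) or replicate 2 (-4.58, adjusted p = 0.155). TNNT2, cardiac troponin T, was lower than replicate 2 alone, at 2.51 and 4.59 CPM with RA against 38.2 and 241 CPM with BMP2. Of 14 skeletal muscle genes, likewise, 1 was lower than both: MYMK, a myoblast fusion protein, at 0.19 and 0.119 CPM with RA against 1.7 and 1.07 CPM with BMP2. The call of MYMK ended without either library of RA day 10 (0.124 and 0.184), RA day 21 (0.0652 and 0.065) or BMP2 day 21 (0.0551 and 0.0576).

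Serum response factor, with which MYOCD acts, binds the CArG box. The promoter of ACTC1 is shown for the muscle genes because it holds this box, 109 bases before the start and in capitals (RefSeq, GRCh38.p14, chr15:34795550-34795799, minus strand).
ACTC1: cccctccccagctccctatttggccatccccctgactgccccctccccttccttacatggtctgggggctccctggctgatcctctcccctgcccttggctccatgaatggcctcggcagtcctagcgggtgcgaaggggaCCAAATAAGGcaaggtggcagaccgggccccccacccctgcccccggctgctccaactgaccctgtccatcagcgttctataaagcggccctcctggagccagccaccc
The CArG box, searched on both strands of the windows used for DR5, was in 351 of 27305 promoters (1.29%). It was in 5 of 15 promoters of the smooth muscle list, those of ACTG2, CNN2, MYLK, SRF and FLNA, and in 2 of 14 of the heart sarcomere list, those of ACTC1 and MYL7. MYLK and FLNA were lower with RA than replicate 2 alone, and ACTC1 than both libraries.

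The BMP response list holds direct targets, ligands and inhibitors of the pathway. Of 24 tested, 3 were lower with RA than both BMP2 libraries (BAMBI, NOG and BMP4; all genes: 2.75%) and 8 were lower than replicate 1 alone (all genes: 2.17%). Against replicate 2 alone 2 were lower and 1 was higher, shares no larger than those of all genes (9.64% and 8.29%). BMP4, a ligand of the pathway, had 20.2 and 33.6 CPM with RA, against 277 and 168 CPM with BMP2 (log2 fold change -3.05 ± 0.55, edgeR adjusted p = 0.00943), and lost its call without RA day 10 replicate 1 (-2.74, adjusted p = 0.0715). BAMBI, a decoy receptor, had 136 and 106 CPM with RA, against 676 and 250 CPM with BMP2. NOG, which traps BMP ligands outside the cell, had 4.91 and 11.7 CPM with RA, against 44.3 and 53.1 CPM with BMP2. The groups did not overlap in any of the 3. MSX2, a homeodomain target, had 22.5 and 14.6 CPM with RA, against 242 and 71.9 CPM with BMP2, and passed against replicate 1 (-3.71, adjusted p = 0.0129) but not against replicate 2 (-1.96, adjusted p = 0.0724). GREM1, another BMP trap, went with the other library: 1.33 and 9.05 CPM with RA, against 12.9 and 327 CPM with BMP2. The textbook targets ID1 and ID3 did not pass. ID1 had 70.4 and 54 CPM with RA and 114 and 65 CPM with BMP2, and ID3 had 254 and 152 CPM with RA and 87.9 and 153 CPM with BMP2.

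The promoters of BAMBI (chr10:28677271-28677520, plus strand) and BMP4 (chr14:53955051-53955300, minus strand; RefSeq, GRCh38.p14) are shown with the SMAD-binding letters GGCGCC in capitals, since both genes were lower with RA than both BMP2 libraries. The letters lie 209, 196 and 181 bases before the start of BAMBI and 232 bases before that of BMP4.
BAMBI: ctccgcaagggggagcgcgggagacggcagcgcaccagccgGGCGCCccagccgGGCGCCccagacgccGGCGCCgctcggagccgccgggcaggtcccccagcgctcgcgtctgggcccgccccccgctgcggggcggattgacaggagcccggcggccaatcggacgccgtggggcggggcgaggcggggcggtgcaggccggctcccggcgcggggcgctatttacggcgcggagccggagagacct
BMP4: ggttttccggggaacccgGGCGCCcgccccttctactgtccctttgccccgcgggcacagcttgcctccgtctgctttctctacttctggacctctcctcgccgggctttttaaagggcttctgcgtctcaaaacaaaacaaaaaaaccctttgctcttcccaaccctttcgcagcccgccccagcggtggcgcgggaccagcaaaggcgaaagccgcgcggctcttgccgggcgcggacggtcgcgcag
GGCGCC was in 6 of 16 promoters of the BMP response list (37.5%), those of DLX6, BAMBI, GREM1, BMP4, BMPER and GATA3, and in 5180 of 27305 promoters (19%) in all, on either strand. The letters CAGCTG, which proneural factors can bind, were in 5 of 16 promoters of the neuronal cytoskeleton and RNA-binding list and in 17.7% of all.

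Epithelial and trophoblast genes divided by library. Of 20 keratin and simple epithelium genes, 3 were lower with RA than both BMP2 libraries (among them KRT19 and ESRP2; all genes: 2.75%). ESRP2 lost its call without RA day 10 replicate 1 (-1.48, adjusted p = 0.149) or replicate 2 (-2.31, adjusted p = 0.055). A further 4, EPCAM, CLDN4, CLDN6 and GRHL2, were called in opposite directions (all genes: 0.35%). EPCAM, an adhesion molecule of epithelial and stem cells, had 40.9 and 48.7 CPM with RA, against 194 and 19.9 CPM with BMP2, so RA lay below one BMP2 library and above the other. GRHL2, a factor of epithelial identity chosen after its values were seen, had 4.53 and 5.81 CPM with RA, against 55.5 and 0.313 CPM with BMP2. GABRP, a GABA receptor subunit found in amnion and trophoblast, had 1.71 and 2.82 CPM with RA, against 577 and 5.25 CPM with BMP2, and its call was made against replicate 1 alone (log2 fold change -7.98 there and -1.20 against replicate 2). VTCN1, chosen in the same way, had 2.34 and 3.01 CPM with RA, against 189 and 0.134 CPM with BMP2. Of the 13 trophoblast and amnion genes, HAND1 and ISL1 were lower than both (all genes: 2.75%) and 3 were lower than replicate 1 alone (2.17%). A further 2 were higher than replicate 2 alone (8.29%), 1 was called in opposite directions (0.35%) and 5 were called against neither. ISL1, a factor of heart progenitors, motor neurons and amnion, had 9.37 and 2.46 CPM with RA, against 221 and 101 CPM with BMP2 (-4.77 ± 0.92), and lost its call without RA day 10 replicate 2 (-4.12, adjusted p = 0.0773).

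Many matrix genes were lower with RA, some against both BMP2 libraries and some against replicate 2 alone. Of 20 collagen genes, 6 were lower than both (COL4A1, COL4A2, COL5A1, COL6A1, COL6A2 and COL6A3), 8 were lower than replicate 2 alone, and 2, COL2A1 and COL9A1, were higher than both (all genes: 2.75%, 9.64% and 2.5%). COL6A3, a chain of the microfibrils around cells, had 1.88 and 1.46 CPM with RA, against 177 and 131 CPM with BMP2 (log2 fold change -6.53 ± 0.77, edgeR adjusted p = 0.00205). COL4A1, of basement membranes, had 75.4 and 148 CPM with RA, against 590 and 1735 CPM with BMP2 (-3.38 ± 0.53). COL2A1, the cartilage collagen, had 570 and 577 CPM with RA, against 118 and 36.8 CPM with BMP2, and rose by 2.89 ± 0.59 on the log2 scale. The treatments did not overlap in these 3, and the call of COL2A1 ended without RA day 10 replicate 1 (2.88, adjusted p = 0.0551) or replicate 2 (2.86, adjusted p = 0.0577), as did that of COL9A1 (0.0867 and 0.0687). COL1A1, the main collagen of skin and bone, had 90.8 and 245 CPM with RA, against 514 and 5196 CPM with BMP2, and passed against replicate 2 (-4.95, adjusted p = 0.00426) but not against replicate 1 (-1.61, adjusted p = 0.259). Of 27 matrix glycoproteins and proteoglycans, 7 were lower than both (FN1, LUM, OGN, FMOD, FBN1, LAMC1 and NID2; all genes: 2.75%) and 9 than replicate 2 alone (9.64%). LUM, a proteoglycan that spaces collagen fibrils, had 12.3 and 4.2 CPM with RA, against 189 and 677 CPM with BMP2 (-5.72 ± 0.83). FN1, fibronectin, had 723 and 812 CPM with RA, against 3949 and 6781 CPM with BMP2, and lost its call without RA day 10 replicate 1 (-2.73, adjusted p = 0.0835) or replicate 2 (-2.90, adjusted p = 0.0754). The calls of OGN (adjusted p = 0.0985 and 0.0622), FMOD (0.086 and 0.0727) and NID2 (0.0897 and 0.105) also ended without either of these libraries.

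Genes of the mesenchymal transition and of WNT signalling showed both directions. CDH11, a mesenchymal cadherin, had 30.9 and 19.3 CPM with RA, against 299 and 352 CPM with BMP2 (log2 fold change -3.70 ± 0.46, edgeR adjusted p = 0.0024). ZEB1 was higher with RA, at 32.8 and 46.6 CPM against 7.27 and 16.9 CPM with BMP2, and its relative ZEB2 was lower, at 83.9 and 82 CPM against 168 and 142 CPM with BMP2. ZEB1 lost its call without RA day 10 replicate 2 (1.43, adjusted p = 0.0822). DKK1, a secreted WNT inhibitor, had 0.876 and 0.686 CPM with RA, against 21.6 and 92.5 CPM with BMP2 (-6.19 ± 0.79), while SFRP2, another secreted inhibitor, had 121 and 123 CPM with RA, against 30.7 and 4.87 CPM with BMP2. SFRP2 lost its call without RA day 10 replicate 1 (2.77, adjusted p = 0.0729) or replicate 2 (2.74, adjusted p = 0.0796). In all, 4 of 30 WNT genes were lower and 1 was higher than both (all genes: 2.75% and 2.5%), and 6 were higher and 3 lower than replicate 2 alone (8.29% and 9.64%). Of 33 axon guidance genes, 3 were lower than both (SLIT3, UNC5B and UNC5D; all genes: 2.75%) and none was higher than both. Against replicate 1 alone 2 were higher and 4 lower (all genes: 1.99% and 2.17%), and against replicate 2 alone 8 were higher and 3 lower (8.29% and 9.64%). UNC5B lost its call without RA day 10 replicate 1 (-2.08, adjusted p = 0.0599) or replicate 2 (-1.28, adjusted p = 0.19), or either RA day 21 library (0.0532 and 0.0531). SLIT3 had 12.7 and 7.32 CPM with RA, against 38.5 and 79.7 CPM with BMP2 (-2.56 ± 0.38).

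Of the remaining largest falls against both libraries, KCTD12, an auxiliary protein of GABA-B receptors, had 16.2 and 13.6 CPM with RA, against 523 and 676 CPM with BMP2 (log2 fold change -5.33 ± 0.36, edgeR adjusted p = 0.000186). PGM5, a protein of muscle adhesion sites, had 0.343 and 0.328 CPM with RA, against 59.4 and 15.5 CPM with BMP2, and the BMP2 libraries differed from each other in it (adjusted p = 0.0383). PITX1, a hindlimb factor, had 1.31 and 0.954 CPM with RA, against 154 and 50.7 CPM with BMP2. RGS1, a regulator of G-protein signalling, had 0.0381 and 0 CPM with RA, against 9.05 and 8.63 CPM with BMP2. FRMPD4 had 0.343 and 1.43 CPM with RA, against 23.8 and 55.3 CPM with BMP2, and SLITRK6 had 0.381 and 0.0894 CPM with RA, against 16 and 52.4 CPM with BMP2. No RA value reached a BMP2 value in these 6 genes. Without RA day 10 replicate 1 the calls of PITX1 (-6.76, adjusted p = 0.0608), RGS1 (-12.04, 0.0853) and SLITRK6 (-8.55, 0.0677) ended, and without replicate 2 as well (-6.30, 0.0726 for PITX1; -7.79, 0.124 for RGS1; -6.49, 0.109 for SLITRK6).

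**Figure D4:**
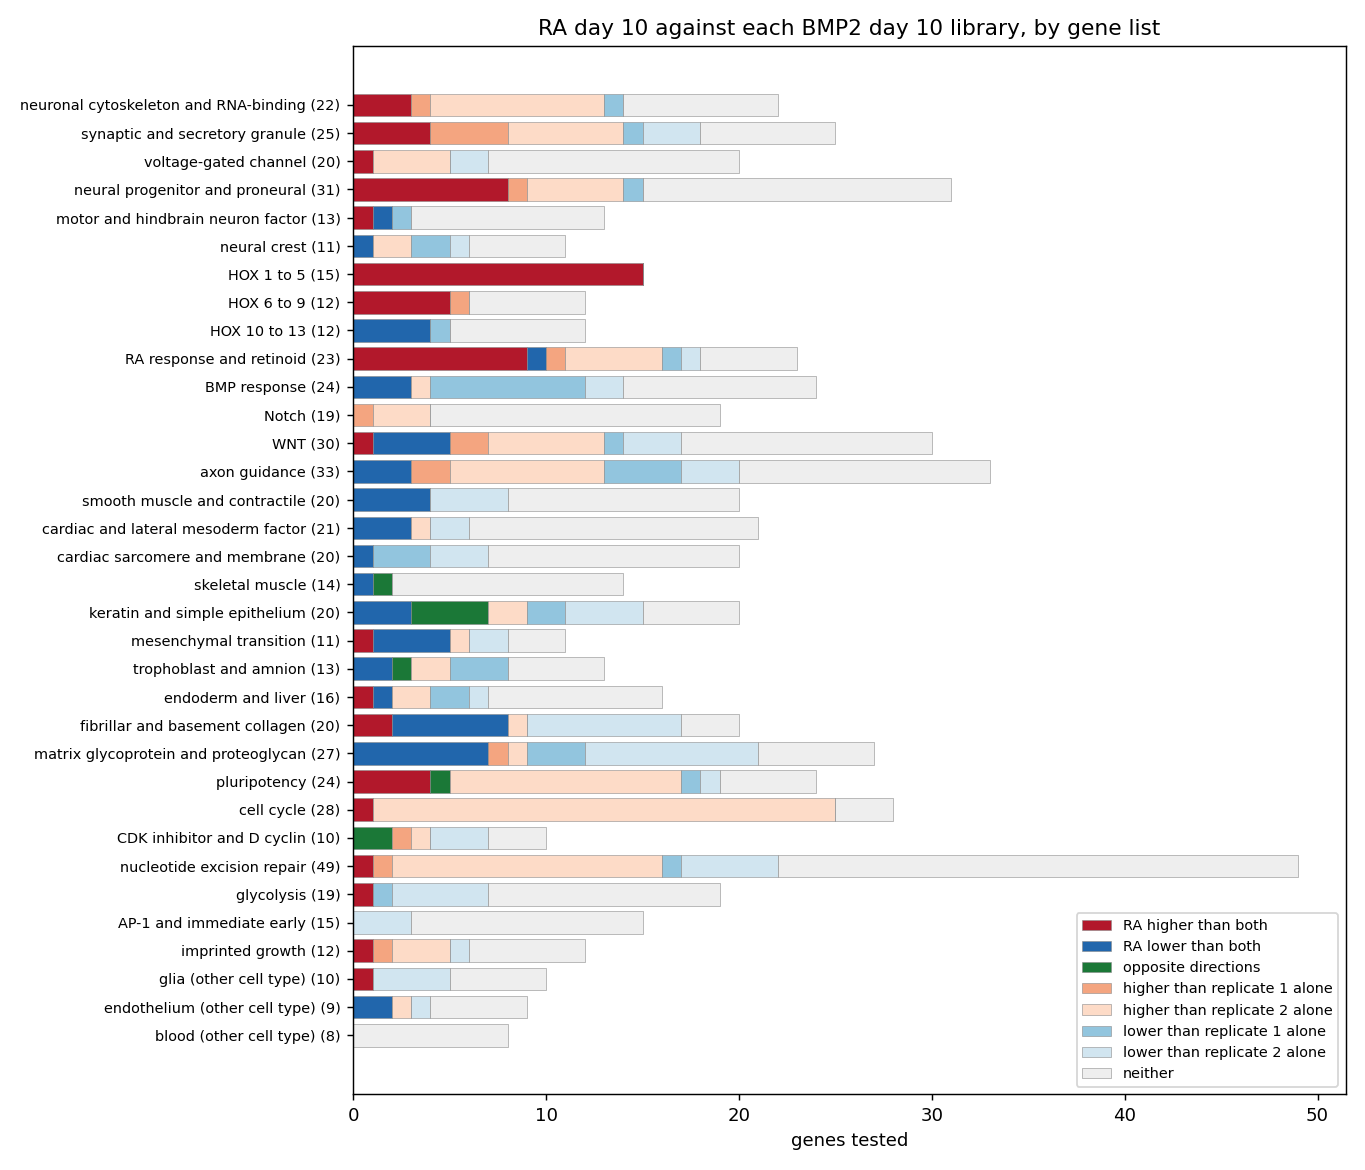
For each gene list, the number of tested members called against both BMP2 day 10 libraries, in opposite directions, against replicate 1 alone, against replicate 2 alone or against neither. HOX groups 1 to 5 are wholly higher than both (15 of 15), and cell cycle genes are mostly higher than replicate 2 alone (24 of 28).

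The plot of calls by gene list shows where calls were made against 1 BMP2 library alone, which does not by itself show that the libraries differ. For the cell cycle list, the median log2 fold change was 0.58 against replicate 1 and 1.66 against replicate 2. Over all tested genes these medians were 0.06 and 0.08. Of 28 cell cycle genes, 24 were higher with RA than replicate 2 alone (all genes: 8.29%), and only PCNA was higher than both. PCNA, the sliding clamp of DNA replication, had 203 and 211 CPM with RA, against 131 and 103 CPM with BMP2 (log2 fold change 0.82 ± 0.16), a call that ended without RA day 10 replicate 1 (0.84, adjusted p = 0.0643) or replicate 2 (0.78, adjusted p = 0.0836). MKI67, a marker of cycling cells, had 302 and 516 CPM with RA, against 179 and 83.8 CPM with BMP2. It passed against replicate 2 (2.29, adjusted p = 0.00363) but not against replicate 1 (1.19, adjusted p = 0.0766). The CDK inhibitor gene CDKN1A had 57.2 and 43.1 CPM with RA, against 11.1 and 466 CPM with BMP2, and was called in opposite directions, as was CCND2, with 1136 and 1250 CPM with RA against 339 and 2348 CPM with BMP2. These 2 were chosen after their values were seen.

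Of 24 pluripotency genes, 12 were higher with RA than replicate 2 alone and 4 than both (SOX2, DPPA3, GDF3 and LEFTY1; all genes: 2.5%). LIN28A, which keeps stem cells from maturing, had 261 and 519 CPM with RA, against 582 and 4.29 CPM with BMP2 (log2 fold change -0.58 against replicate 1, 6.51 against replicate 2). POU5F1, the core pluripotency factor, had 36.2 and 22.8 CPM with RA, against 110 and 1.52 CPM with BMP2, and was called in opposite directions. RA values lay between the BMP2 libraries in both genes. GDF3 had 17.5 and 9.24 CPM with RA, against 1.28 and 0.447 CPM with BMP2 (3.93 ± 0.56), with no overlap. LEFTY1 lost its call without RA day 10 replicate 1 (4.50, adjusted p = 0.0568).

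Nucleotide excision repair, the subject of the study, was represented by 49 tested genes. PCNA was the only one called against both libraries. A further 14 were higher with RA than replicate 2 alone (all genes: 8.29%), among them LIG1, the replicative DNA ligase, at 56 and 49.3 CPM with RA against 33 and 20.4 CPM with BMP2. Another 5 were lower with RA than replicate 2 alone, near the share of all genes (9.64%), 1 gene was higher and 1 was lower than replicate 1 alone, and 27 were called against neither. The list's median log2 fold change was 0.02, and its summed level was 4402 and 4507 CPM with RA, against 5064 and 4121 CPM with BMP2.

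Genes tied to replicate 1 alone included epithelial and secretory genes that replicate 2 lacked. KRT16, a keratin of stressed epithelium, had 0.152 and 0 CPM with RA, against 15 and 0.0447 CPM with BMP2. ATP12A, a proton pump subunit of epithelia, had 0.914 and 0.849 CPM with RA, against 30.5 and 0.0447 CPM with BMP2, and PLA2G2A, a secreted phospholipase, had 0.267 and 0 CPM with RA, against 31 and 0 CPM with BMP2. Replicate 1 was high and the other 3 libraries were low in all of these, which were named for a large gap between the BMP2 libraries. In the other direction, HLA-B, which presents peptides to T cells, had 78.7 and 17.5 CPM with RA, against 2.87 and 115 CPM with BMP2, and SLC7A14 had 9.14 and 29.5 CPM with RA, against 0.355 and 28.7 CPM with BMP2. Here replicate 1 was the low library, again in genes named for that gap. SOX21 and IRX5, factors of neural tissue, were higher with RA than replicate 2 alone: SOX21 had 19.5 and 37.3 CPM with RA, against 2.71 and 0 CPM with BMP2, and IRX5 had 11.4 and 4.65 CPM with RA, against 2.16 and 0 CPM with BMP2.

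Interferon-induced genes were among those lower with RA than replicate 2 alone. IFI44L had 5.83 and 0.328 CPM with RA, against 0.55 and 431 CPM with BMP2 (log2 fold change -7.15 against replicate 2, edgeR adjusted p = 0.00573, and 2.46 against replicate 1, adjusted p = 0.381). OAS1, an antiviral sensor of double-stranded RNA, had 6.43 and 0.373 CPM with RA, against 0 and 116 CPM with BMP2, and STING1, an adaptor of cytosolic DNA sensing, had 1.26 and 0.104 CPM with RA, against 0.0355 and 72.8 CPM with BMP2. The noncoding gene LINC00968, which is not on the interferon list, had 0.171 and 0 CPM with RA, against 0 and 7.4 CPM with BMP2. Replicate 2 stood alone above the other 3 libraries in these genes, which were named for their large gap between the BMP2 libraries. Over a list of 30 interferon genes drawn up after these values were seen, the summed level was 785 and 436 CPM with RA, against 525 and 6440 CPM with BMP2, and 28 of the 30 were highest in BMP2 replicate 2 among the day 10 libraries. Of the 30, 20 were lower with RA than replicate 2 alone (all genes: 9.64%) and 2 were higher than replicate 1 alone (1.99%). Another 1 was called in opposite directions (0.35%), and 7 were called against neither. The list was chosen on these values, so its counts are no test. At day 21 the BMP2 libraries reached 1897 and 5535 CPM, and at day 5 they had 395 and 517 CPM.

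Across days, the BMP2 libraries were set side by side by summed levels of the collagen, cell cycle and pluripotency lists. In these sums BMP2 day 10 replicate 1 lay near BMP2 day 5. Summed collagen levels were 8808 and 5526 CPM at BMP2 day 5, 4999 and 25495 CPM at day 10, and 39120 and 41645 CPM at day 21. Summed cell cycle levels were 4010 and 2872 CPM at BMP2 day 5, 3019 and 1391 CPM at day 10, and 1344 and 898 CPM at day 21. Pluripotency genes summed to 1248 and 1445 CPM at day 5, 1467 and 407 CPM at day 10, and 343 and 332 CPM at day 21. Day 10 replicate 2 lay on the side of day 21 in each of these sums. In the summed interferon genes it lay above both BMP2 day 21 libraries, at 6440 CPM against 1897 and 5535 CPM. What set the replicates apart was not tested. NEFM, TBX20 and KRT19 kept the direction of day 10 at both other days, with log2 fold changes of RA over BMP2 of 2.16, -6.82 and -2.46 at day 5 and of 2.49, -11.25 and -4.71 at day 21, all past the test. The difference of the contrast between day 10 and day 21 itself passed for 29 genes (0.151%), 24 of them (0.125%) with a higher contrast at day 10 and 5 (0.0261%) with a lower one. CHRNA3, a nicotinic receptor subunit, had 35 and 16 CPM with RA against 1.08 and 0.581 CPM with BMP2 at day 10, and 5.8 and 6.09 CPM with RA against 8.72 and 7.03 CPM with BMP2 at day 21, and its difference missed the threshold without any one of the 4 libraries of day 21. Between day 10 and day 5, 0 genes passed with edgeR, with 1233 at an unadjusted p under 0.05 and 122 called by DESeq2.

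**Figure D5:**
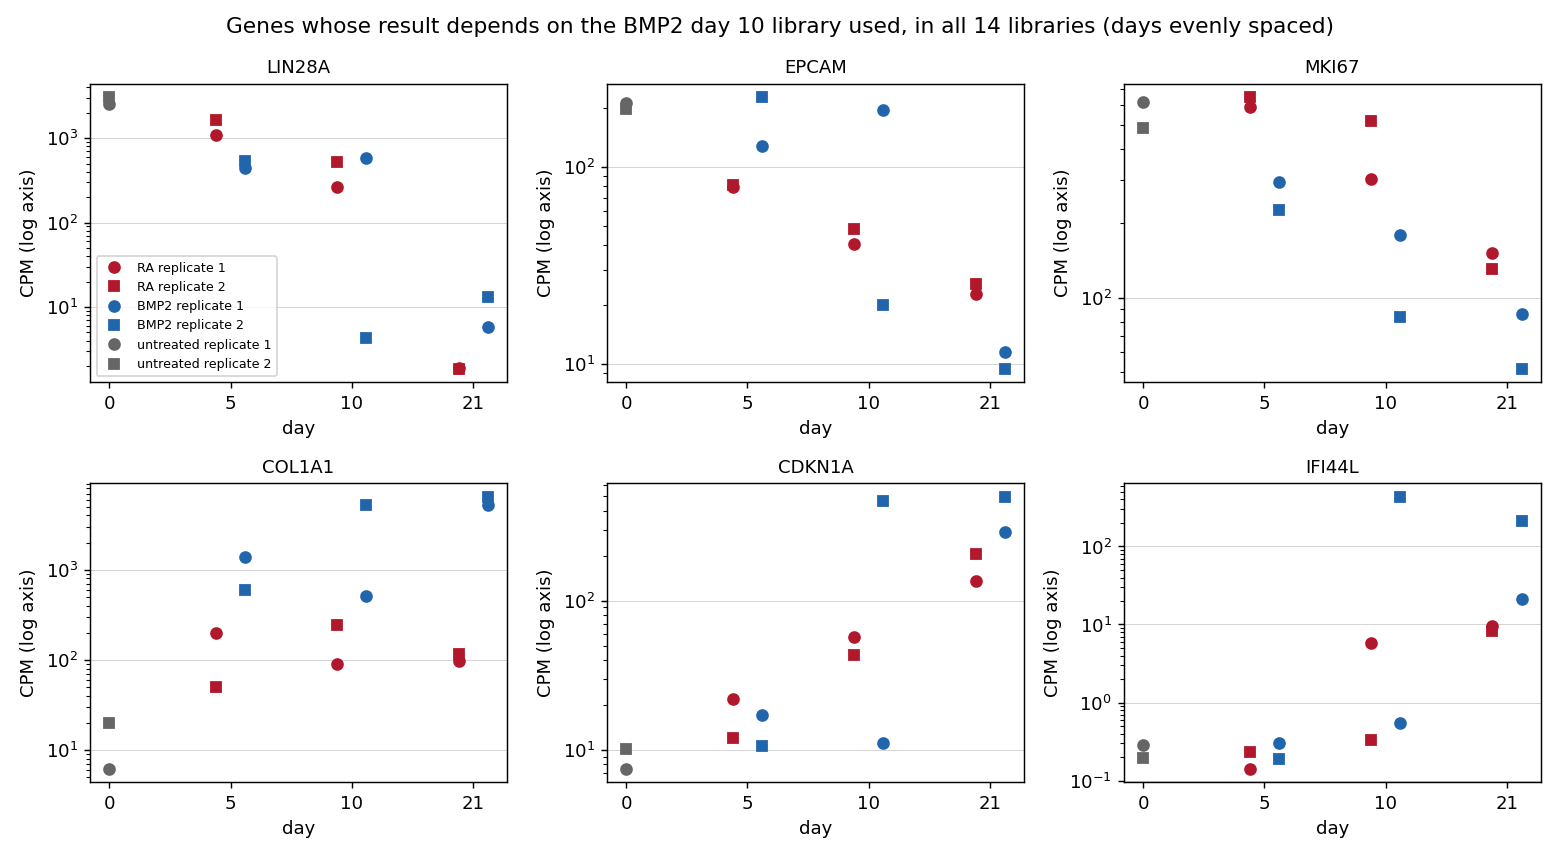
CPM on a log axis of LIN28A, EPCAM, MKI67, COL1A1, CDKN1A and IFI44L in all 14 libraries, by day of RA, of BMP2 and of no treatment, with days evenly spaced and 1 point per library. At day 10 the BMP2 libraries are split, as for LIN28A at 582 and 4.29 CPM and COL1A1 at 514 and 5196 CPM, with the RA libraries at 261 and 519 CPM and at 90.8 and 245 CPM.

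Some markers of cell types outside both inductions were near 0, and others were not. The endothelial list summed to 73.3 and 93.9 CPM with RA and to 167 and 228 CPM with BMP2. The endoderm and liver list summed to 419 and 219 CPM with RA and to 649 and 514 CPM with BMP2. Among 8 blood genes tested, none was called, but RA day 10 replicate 1 held SPI1 at 11.4 CPM and PTPRC at 8.26 CPM, against 0 in RA day 10 replicate 2. The list summed to 23.1 and 1.31 CPM with RA and to 0.674 and 1.79 CPM with BMP2. HBG2 was at or near 0 in all 4 libraries, and the part of such cells in other results was not tested. Of 10 glial genes, GFAP was at most 0.156 CPM, and SLC1A2, a glutamate transporter, was higher than both (all genes: 2.5%). It had 43.3 and 51.4 CPM with RA, against 3.1 and 0.402 CPM with BMP2. Another 4 glial genes were lower with RA than replicate 2 alone (all genes: 9.64%), and 5 were called against neither. The list summed to 95.3 and 110 CPM with RA and 83.9 and 149 CPM with BMP2. Of 9 endothelial genes, the receptor genes KDR and FLT1 were lower than both (all genes: 2.75%). Against replicate 2 alone 1 was higher and 1 was lower (8.29% and 9.64%). FLT1 had 2.78 and 2.47 CPM with RA, against 22.1 and 76.9 CPM with BMP2, and lost its call without RA day 10 replicate 1 (-4.32, adjusted p = 0.0525) or replicate 2 (-4.16, adjusted p = 0.0588). KDR lost it without replicate 2 (-2.83, adjusted p = 0.0526). CDH5, which defines endothelium, had 1.73 and 2.22 CPM with RA and 0.674 and 0.0894 CPM with BMP2. Of 16 endoderm and liver genes, FOXA1, also a floor plate factor, was higher than both (all genes: 2.5%). It had 31.3 and 20.5 CPM with RA, against 0.142 and 0.358 CPM with BMP2, while ALB was at most 0.179 CPM. On this list 1 gene was lower than both (2.75%) and 2 were lower than replicate 1 alone (2.17%). Against replicate 2 alone 2 were higher and 1 was lower (8.29% and 9.64%), and 9 were called against neither.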

How the data were processed

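The authors deposited raw read counts for 25952 genes in 14 libraries and RPKM of the same genes. STAR, featureCounts, DESeq2 and build hg19 are named in the submitters' processing notes, without versions or roles. Counts of 1 to 19 were even in 66% to 73.5% of cases, a pattern that counting each read of a pair would give. The length implied by the deposited RPKM equalled the whole gene span within 1% for 89% of 5814 genes, so values may include introns. Names were found for 25272 identifiers. Total counts ran from 45773278 to 75754396, and replicates were never identical (0 pairs).

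Counts were tested with edgeR 4.0.16 in R 4.3.3 (TMM, filterByExpr with a minimum count of 10, quasi-likelihood F test) over all 14 libraries. A first fit had 7 groups (common biological coefficient of variation 0.368). A second gave each BMP2 day 10 library its own group (0.29). A call is a Benjamini-Hochberg adjusted p under 0.05 over 19142 genes, and the SE is the log2 fold change divided by the square root of F. Where 1 treatment had no count, folds were taken against a floor of 3 counts over that treatment, which covers counting error of independent counts only.

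The comparison, the 34 gene lists and the naming rule were chosen with earlier results of these data known. The rule names NEFM, TBX20 and KRT19, the 12 largest changes in each direction against both libraries, the 8 largest of each kind that depend on 1 library, up to 4 called members of each list in each direction, and genes whose contrast differs between days. Members of a class given as a full roster, and those said to be chosen after their values were seen, fall outside it. Some genes that the rule names are not reported here. Of 687 list entries, 656 were tested. In data simulated on 18535 genes, RA against BMP2 day 10 recovered 16% of 2-fold, 76% of 4-fold and 90% of 8-fold changes, and the test against both libraries 4%, 50% and 74%. Alternatives were RLE factors, other filters, robust dispersions, a replicate block, a 2-fold threshold, DESeq2 1.42.0, only the 4 libraries, and leaving out each library. RPKM values were tested with limma 3.58.1 on the log2 scale with a pseudocount of 1 or 0.1, and, added after the data were seen also after division by TMM factors. Promoters came from RefSeq (GRCh38.p14). Python 3.11.15, pandas 2.3.3, NumPy 2.4.6 and matplotlib 3.10.9 were used.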

Additional observations from a re-analysis of the deposited data

Results flagged for a closer look

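The RA against BMP2 contrast at day 10 was set against the same contrast at days 5 and 21 with a test of the difference itself in the edgeR fit. For day 21, 29 genes (0.151%) passed an adjusted p of 0.05, with 2308 at an unadjusted p under 0.05 and 673 by DESeq2. For day 5, 0 genes passed, with 1233 at an unadjusted p under 0.05 and 122 by DESeq2.

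The contrast was higher at day 10 than at day 21 by 12.76 on the log2 scale for MMRN1, which had 39.8 and 47.2 CPM in RA day 10 cells against 0 and 0.0447 CPM in BMP2 day 10 cells, and 0.0299 and 0.0539 CPM against 0.164 and 0.147 CPM at day 21. For CHRNA3, a nicotinic receptor subunit, the difference was 5.33, with 35 and 16 CPM with RA against 1.08 and 0.581 CPM with BMP2 at day 10 and 5.8 and 6.09 CPM against 8.72 and 7.03 CPM at day 21. ERVH48-1, an endogenous retroviral gene, differed by 5.59. It had 11.6 and 11.3 CPM with RA against 21.1 and 19.6 CPM with BMP2 at day 10, and 0.344 and 0.431 CPM against 29.2 and 37.7 CPM at day 21. The differences were 6.91 for ABCB1, 5.10 for PTPRE and 4.49 for ACKR1.

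The contrast was lower at day 10 than at day 21 by -2.75 for ATP5ME, -1.98 for TMSB10, -1.69 for SLC20A2, -1.30 for PTK7 and -1.11 for FKBP1A. PTK7, a receptor of planar polarity, had 141 and 136 CPM with RA against 429 and 358 CPM with BMP2 at day 10, and 392 and 368 CPM against 419 and 457 CPM at day 21. All of TMSB10's span lies inside other genes.

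Most of these calls depend on single libraries. Of the 20 alternatives run for each gene, 14 of them leaving out 1 library, the call ended under 11 for MMRN1, 4 for CHRNA3, 14 for ABCB1, 11 for PTPRE, 9 for ACKR1, 8 for ATP5ME, 11 for TMSB10, 11 for SLC20A2, 13 for PTK7 and 15 for FKBP1A. The highest adjusted p among them was 0.183 for CHRNA3 and between 0.244 and 0.357 for the other genes. Leaving out any library of day 21 ended the call of each of these 10 genes, and the replicate block ended those of MMRN1, ABCB1, PTPRE, ACKR1, TMSB10, SLC20A2, PTK7 and FKBP1A. The call of ERVH48-1 held under all 20 (highest adjusted p = 0.00906).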

How the results depend on the processing

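No gene of the naming rule changed direction under any alternative run, in the contrast followed for it. For genes named for a gap between the BMP2 libraries, such as LIN28A, that contrast was BMP2 replicate 1 over replicate 2. Genes outside the rule, such as EPCAM, POU5F1 and CDKN1A, were not followed. The balance of all calls did turn. As reported, 979 genes were higher and 1096 lower with RA, while more were higher than lower without replicate 1 or 2 of RA day 10. The same turn came with a 2-fold threshold, with only the 4 libraries and with limma on RPKM without TMM factors. With limma after TMM factors it came with a pseudocount of 1 and not with 0.1. Leaving out each library in turn gave 337 to 2056 genes higher and 275 to 2379 lower with RA than both BMP2 libraries as 1 group. The lowest counts came without an RA day 10 library (408 and 275 without replicate 1, 337 and 282 without replicate 2) and the highest without BMP2 day 10 replicate 1. The ranges were 289 to 577 genes higher than each BMP2 library and 359 to 603 lower, 470 to 877 and 2525 to 3550 that depend on replicate 1 and 2, 35 to 119 with opposite signs, 1188 to 2528 between the BMP2 libraries, and 2 to 747 (day 21) and 0 to 508 (day 5) for the difference between days. Of the 1005 genes that differ from both, 598 did so without RA day 10 replicate 1 and 554 without replicate 2. DESeq2 gave 1809 higher and 2165 lower, 937 and 848 against both, 1444 that depend on replicate 1, 178 opposite, 3813 between the BMP2 libraries, and 122 and 673 for days 5 and 21. No low-count filter gave 157 opposite and 118 for day 21. A 2-fold threshold left 191 higher and 174 lower, and only the 4 libraries left 6 and 3. limma on RPKM gave 1426 higher and 441 lower (pseudocount 1) and 1400 and 487 (0.1), 76.4% and 74.2% of calls higher against 47.2% as reported, with the median of all genes moved by 0.11 and 0.19. After TMM factors it gave 678 and 659 (pseudocount 1) and 731 and 771 (0.1).

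Same-numbered libraries did not deviate together in 1 common direction (21 pairs of groups, 4 with a correlation over 0.1). The lowest correlation was -0.478, between BMP2 day 5 and BMP2 day 10, and the highest 0.265, between BMP2 day 10 and day 21. Between RA day 10 and BMP2 day 10 it was 0.058, and the numbers were not taken to pair the libraries. A replicate block gave 824 higher and 837 lower, 370 and 388 against both, 1218 between the BMP2 libraries and 12 for day 21. Among 121 named calls of RA against both BMP2 libraries as 1 group, the block ended 19 and DESeq2 0. The 2-fold threshold ended 68 and only the 4 libraries 113. With limma on RPKM 24 (pseudocount 1) and 14 (0.1) ended, and after TMM factors 21 and 10. Leaving out either RA day 10 library ended most of the 121. Where a cause is not given by fewer samples or genes, the cause was not tested. With 2 libraries a group, changes under 2-fold were mostly out of reach.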
